A study of Homo sapiens with 6 samples.

Results

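The genes described here are 10 regulators of the G1 phase of the cell cycle: the CDK inhibitors of the CIP/KIP group (CDKN1A, CDKN1B and CDKN1C), those of the INK4 group (CDKN2A, CDKN2B, CDKN2C and CDKN2D) and the retinoblastoma family (RB1, RBL1 and RBL2). They were chosen by name, with earlier results of these data known, and all 10 are reported whatever their values. They come from 58523 genes with a matched transcript, and they hold 61 of the 244939 transcripts in the tables. RNA was sequenced from A375, an established human melanoma cell line obtained from ATCC. Of 6 cultures, 3 were treated for 24 h with hMGL, a human methionine-degrading enzyme made by protein engineering (hMGL replicates 4, 5 and 6). The other 3, of the same line, were left untreated (control replicates 1, 2 and 3). The labels call the cultures independent, give both groups the same medium with serum and antibiotics, and name no other agent or genotype. The dose of hMGL is not given in the sources used here, and a single cell line was studied.

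Cyclin-dependent kinases (CDKs) drive cells through G1 and into DNA synthesis by phosphorylating the retinoblastoma proteins, which otherwise hold E2F transcription factors in check. INK4 proteins bind CDK4 and CDK6 and keep D-type cyclins from activating them, whereas CIP/KIP proteins bind cyclin-CDK complexes, above all those of CDK2. CDKN1A encodes p21, and the CDKN2A locus is one of the tumour suppressor loci lost most often in melanoma.

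The CDK inhibitors moved in both directions and the retinoblastoma genes fell. Of the 9 members with enough counts to be tested, 3 rose in hMGL-treated cells (CDKN1A, CDKN2A and CDKN2D), 5 fell (CDKN1C, CDKN2C, RB1, RBL1 and RBL2) and CDKN1B did not pass the test. CDKN2B had too few counts to be tested. The largest change of level among the risers was that of CDKN2A, 3.26-fold higher, and among the members that fell that of RB1, 3.31-fold lower. The test was edgeR's quasi-likelihood test on gene sums of estimated counts with Benjamini-Hochberg adjustment over all genes, and "rose" and "fell" mean an adjusted p under 0.05.

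These counts stand against a transcriptome that moved widely. In the same test 69.4% of the 22580 genes tested passed, 34.9% higher and 34.5% lower, so 8 calls among 9 members are in themselves no result about these genes. The 3 hMGL and the 3 control libraries did not overlap in CPM (library-scaled counts relative to the library size) for 8 of the 9 members, and for 73.3% of all genes tested. The median log2 fold change over the 9 tested members was -0.28, against -0.02 over all genes tested. In bulk RNA, fewer cells expressing a gene and less of its RNA per cell cannot be told apart.

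**Figure D1:**
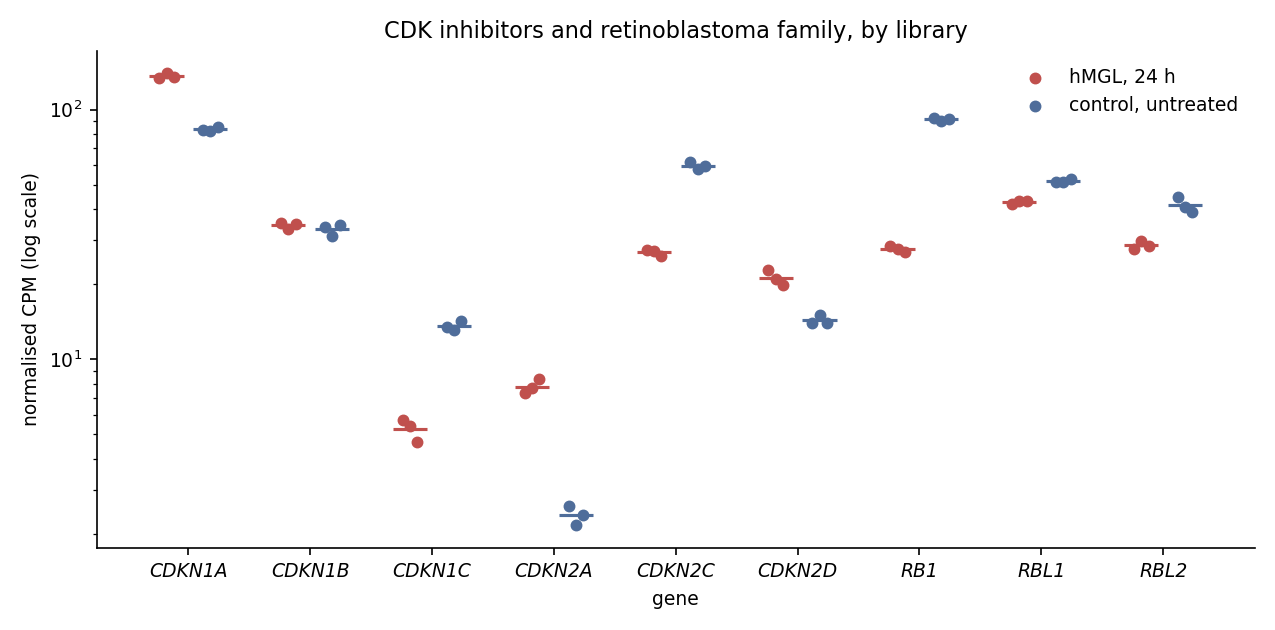
Normalised CPM (y axis, log scale) of the 9 tested members, by gene along the x axis. Each point is a library, red for hMGL and blue for control, and each line the mean of 3 libraries. CDKN1A, CDKN2A and CDKN2D sit higher in hMGL, CDKN1B overlaps, and the other members sit lower in hMGL.

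Levels of different genes were compared only as TPM, which divides by effective length. In each library the effective length given exceeded the transcript's own length for 25.65% to 27.13% of transcripts, and its part in these levels was not tested. In hMGL-treated cells CDKN1A had the highest level of the 10 members, 55.3 ± 4.29 TPM (SD, n = 3), followed by RBL1 at 14.9 ± 0.909 TPM. RBL1, CDKN2C, CDKN1B and CDKN2D then formed a chain in which each overlapped the next in its range over libraries, and so did RB1, RBL2 and CDKN2A further down. In control cells CDKN2C at 24.9 ± 1.88 TPM and RB1 at 22.6 ± 1.66 TPM led and overlapped each other, ahead of CDKN1A at 18.8 ± 1.72 TPM and RBL1 at 17.4 ± 0.825 TPM, which also overlapped. CDKN2B was at the bottom in both groups.

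The libraries held 50760266 to 53682075 estimated counts in hMGL and 53441686 to 59954677 in control cells, and the common biological coefficient of variation was 0.074. Replicates of a group differed by more than counting noise in every pair. The label of the cells was checked against markers. SOX10, the neural crest factor of the melanocyte lineage, averaged 55.9 TPM in hMGL and 67.1 TPM in control cells, and MITF averaged 13.6 TPM in hMGL and 14.6 TPM in control cells. The pigment gene MLANA was at 0.451 to 0.563 TPM in hMGL and 0.580 to 0.853 TPM in control libraries and the tyrosinase gene TYR reached at most 0.125 TPM. Of 13 tested genes of the melanoma and melanocyte list, 5 rose and 6 fell by edgeR (34.9% and 34.5% of all genes tested). PAX3, PMEL and MIA were among the risers, and S100A1, S100B and BCAN among the fallers. The list summed to 224.9 to 281.1 TPM in hMGL and 317.8 to 378.4 TPM in control libraries. Of the leukocyte list, PTPRC and CD3E did not exceed 0.154 TPM in any library. Of its 3 tested genes, CD68 and CD14 rose and LYZ fell by edgeR: CD68 had 25.8 ± 2.23 TPM in hMGL and 20.7 ± 1.79 TPM in control cells, and LYZ had 2.33 ± 0.515 TPM in hMGL and 6.25 ± 0.904 TPM in control cells. The summed fibroblast list was at 1.98 to 2.13 TPM in hMGL and 3.68 to 4.37 TPM in control libraries, with 0 of 5 tested markers rising and 3 falling. The summed keratinocyte list was at 24.6 to 28.1 TPM in hMGL and 20.9 to 24.4 TPM in control libraries, with 3 of 4 rising and 1 falling, and KRT1 at 0 in all 6. The sums of the epithelial and endothelial lists overlapped between the groups. The epithelial sum was 154.2 to 179.3 TPM in hMGL and 155.2 to 166.4 TPM in control libraries, with 2 of 4 tested markers rising and 1 falling. The endothelial sum was 1.23 to 1.59 TPM in hMGL and 0.989 to 1.55 TPM in control libraries, with 2 of 4 rising and 0 falling. The part of these shifts in the results was not tested.

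CDKN1A (chr6:36676460-36687339, plus strand, GRCh38) encodes p21, the inhibitor that stops CDK2 complexes under stress. Its gene sum was 133.8, 139.6 and 134.5 CPM in hMGL replicates 4, 5 and 6, against 82.9, 82.1 and 85.3 CPM in control replicates 1, 2 and 3. The groups lay well apart and each was tight. The log2 fold change was 0.70 ± 0.03 (SE), a 1.63-fold rise (edgeR adjusted p = 1.23e-12). The size of this rise depends on how transcripts of different length are weighed. As TPM, CDKN1A reached 59.8, 54.9 and 51.3 in hMGL libraries, against 19.5, 20.1 and 16.8 in control libraries, a 2.95-fold difference of the means. When the transcripts annotated as protein coding were summed alone, a setting chosen after the data were seen, the rise was 1.33-fold (log2 fold change 0.41 ± 0.03, edgeR adjusted p = 4.76e-07). That rise rests on a single coding form, CDKN1A-203, described below. The 4 other coding transcripts summed to 11.3 ± 1.62 TPM in hMGL and 16.3 ± 2.10 TPM in control cells, lower in hMGL, a sum that carries no test.

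**Figure D2:**
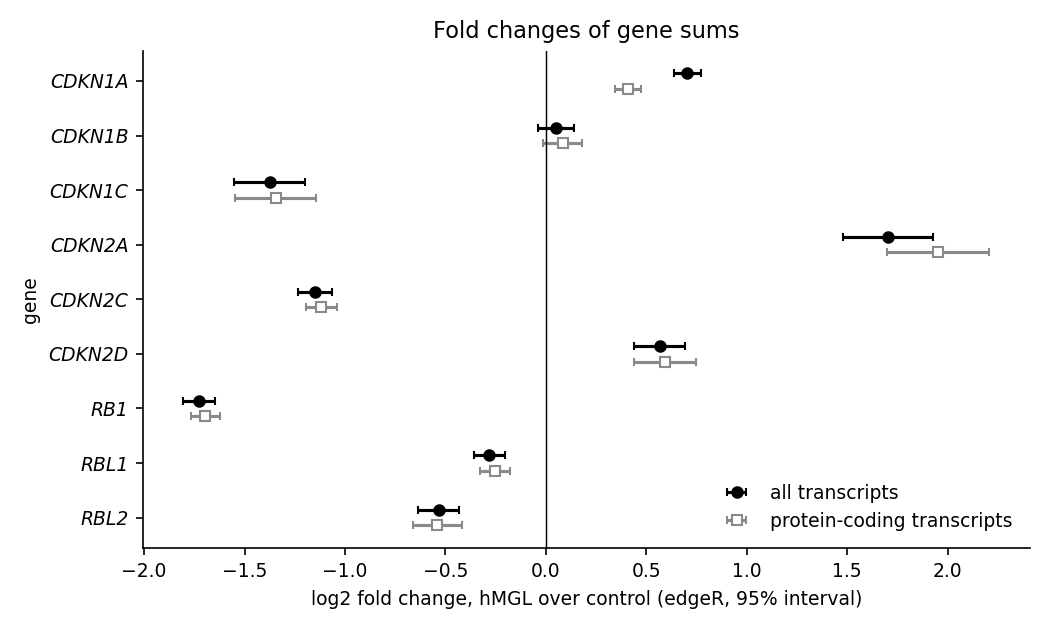
Log2 fold change of each tested member's gene sum, hMGL over control (x axis), from edgeR with its 95% interval. Black points sum all transcripts of a gene and open grey squares those annotated as protein coding: CDKN1A is at 0.70 and 0.41, and CDKN2A at 1.70 and 1.95.

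GENCODE lists 8 CDKN1A transcripts, 5 of them protein coding with the same coding length of 492 bases, so that they differ in their starts, first exons and ends, and CDKN1A-202 and CDKN1A-204 each in an added internal exon, and not in the length of their coding sequence. CDKN1A-206 is annotated as a noncoding processed transcript of 553 bases with 2 exons. Its first exon, chr6:36678771-36678939, begins within the first exon of the main coding forms, and its last exon, chr6:36680474-36680857, lies in the intron before chr6:36684097-36684546, an exon that all coding forms share. None of the 384 bases of that last exon belongs to another CDKN1A transcript. The stretch shown spans its splice junction, from GENCODE 29 on GRCh38, plus strand, because these bases set it apart from the coding forms. The capitals mark the last 20 bases of its first exon, and the lower case the first 150 bases of its last exon.
CDKN1A-206: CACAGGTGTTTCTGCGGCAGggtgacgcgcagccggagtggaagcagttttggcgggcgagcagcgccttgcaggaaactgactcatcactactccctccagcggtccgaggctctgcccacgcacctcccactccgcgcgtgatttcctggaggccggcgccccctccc

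CDKN1A-206 had 1493, 1464 and 1357 estimated counts in hMGL replicates 4, 5 and 6, against 34.0, 44.9 and 40.5 in control replicates 1, 2 and 3. Its level was 34.4, 31.4 and 29.2 TPM in hMGL libraries, against 0.694, 0.999 and 0.737 TPM in control libraries. It was scarce in every control library and the most abundant CDKN1A transcript by TPM in every hMGL library. The log2 fold change was 5.24 ± 0.16 (edgeR at transcript level, adjusted p = 1.31e-05), the largest of the members' 26 tested transcripts. It held 57.2 ± 0.282% of CDKN1A's TPM in hMGL and 4.31 ± 0.708% in control cells (SD, n = 3 each). These shares depend on effective lengths, which were 639 to 686 bases for CDKN1A-206 (length 553) and 3360 to 3456 bases for CDKN1A-201 (length 2117). As a share of estimated counts the transcripts not annotated as coding, nearly all of it CDKN1A-206, were 20.9% in hMGL and 0.951% in control cells. The tables do not show whether the reads of its last exon came from spliced RNA or from unspliced CDKN1A RNA.

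CDKN1A-203, a coding form that shares the long first exon of CDKN1A-206, followed the same direction. It had 12.4, 12.7 and 12.05 TPM in hMGL libraries, against 1.37, 1.36 and 2.17 TPM in control libraries, and rose by 2.83 ± 0.27 on the log2 scale (edgeR at transcript level, adjusted p = 0.000896). The long first exon runs to chr6:36678939 and the short one of CDKN1A-201 ends 141 bases before that, at chr6:36678798. CDKN1A-203 has no base of its own within the gene, so its level rests on how kallisto shared reads, and the 141 bases, which it has in common with CDKN1A-206 and CDKN1A-207, are what it holds beyond CDKN1A-201. Those 141 bases lie in the first intron of CDKN1A-201, so reads of spliced and of unspliced CDKN1A RNA cannot be told apart there either.

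The other tested coding forms had no rise that passed in the main test. CDKN1A-202, a minor form from the short first exon, had 0.990, 0.821 and 0.893 TPM in hMGL libraries, against 0.161, 0.441 and 0.381 TPM in control libraries. All its hMGL libraries lay above all control libraries, and its log2 fold change of 1.36 ± 0.41 did not pass (edgeR at transcript level, adjusted p = 0.0561). Its call depends on the method: CDKN1A-202 passed as higher with DESeq2 and with limma on log2(TPM + 0.1) and on log2(TPM + 1). CDKN1A-201, the longest listed form from the short first exon, had 10.6, 8.54 and 9.12 TPM in hMGL libraries, against 7.58, 7.74 and 13.4 TPM in control libraries. The groups overlapped, control replicate 3 being the highest library of all, and the log2 fold change of -0.13 ± 0.29 did not pass (edgeR adjusted p = 0.784); it was 0.27 without control replicate 3 (adjusted p = 0.0401). CDKN1A-204 and CDKN1A-208, which begin at an upstream exon, changed places between libraries: in control replicate 1 CDKN1A-204 held 2174 estimated counts and CDKN1A-208 held 9.38, in control replicate 2 CDKN1A-208 held 1938 and CDKN1A-204 under 1, and in control replicate 3 they held 0 and 24.6. They differ from each other only upstream of the exon that all coding forms share. CDKN1A-208 has 30 bases of its own at its start, and CDKN1A-204 an added exon of 32 bases. The level of either one alone cannot be read from these tables.

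Transcripts were also summed by class of start. The 3 transcripts with the long first exon summed to 46.7, 44.1 and 41.2 TPM in hMGL libraries, against 2.07, 2.36 and 2.91 TPM in control libraries. That class was 18.01-fold higher by its means and held 79.6 ± 1.32% of CDKN1A's TPM in hMGL and 13.2 ± 3.56% in control cells. In that class the groups lay far apart, but reads of spliced and of unspliced CDKN1A RNA cannot be told apart in it. The 2 transcripts with the short first exon, CDKN1A-201 and CDKN1A-202, summed to 11.5, 9.36 and 10.01 TPM in hMGL libraries, against 7.74, 8.18 and 13.8 TPM in control libraries. These groups overlapped and their means differed 1.04-fold. The 3 that begin upstream summed to 1.56, 1.41 and 0.0495 TPM in hMGL libraries, against 9.66, 9.54 and 0.123 TPM in control libraries. They overlapped as well, since hMGL replicate 6 and control replicate 3 were near 0. Summed over both of these classes, the 5 transcripts had 13.1, 10.8 and 10.1 TPM in hMGL libraries, against 17.4, 17.7 and 13.9 TPM in control libraries. In that sum the groups did not overlap, by a narrow margin, and the difference of the means was 1.44-fold. These class sums were formed after the data were seen and carry no test.

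**Figure D3:**
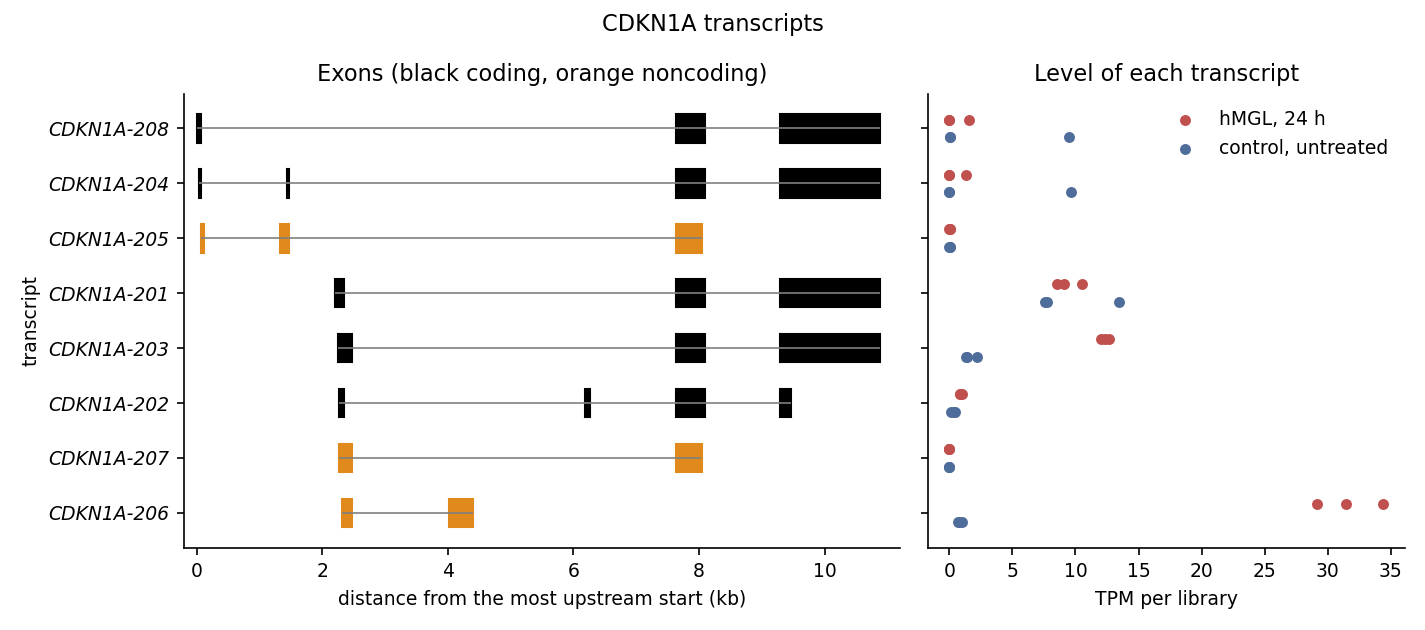
Left, the exons of the 8 CDKN1A transcripts as boxes (black for transcripts annotated as coding, orange for noncoding ones), by distance in kb from the most upstream start; right, the TPM of each transcript, 1 point per library, hMGL in red above control in blue. CDKN1A-206 lies at 29.2 to 34.4 TPM in hMGL and under 1 TPM in control libraries, and CDKN1A-208 and CDKN1A-204 each have a single control library near 9.5 TPM.

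**Figure D4:**
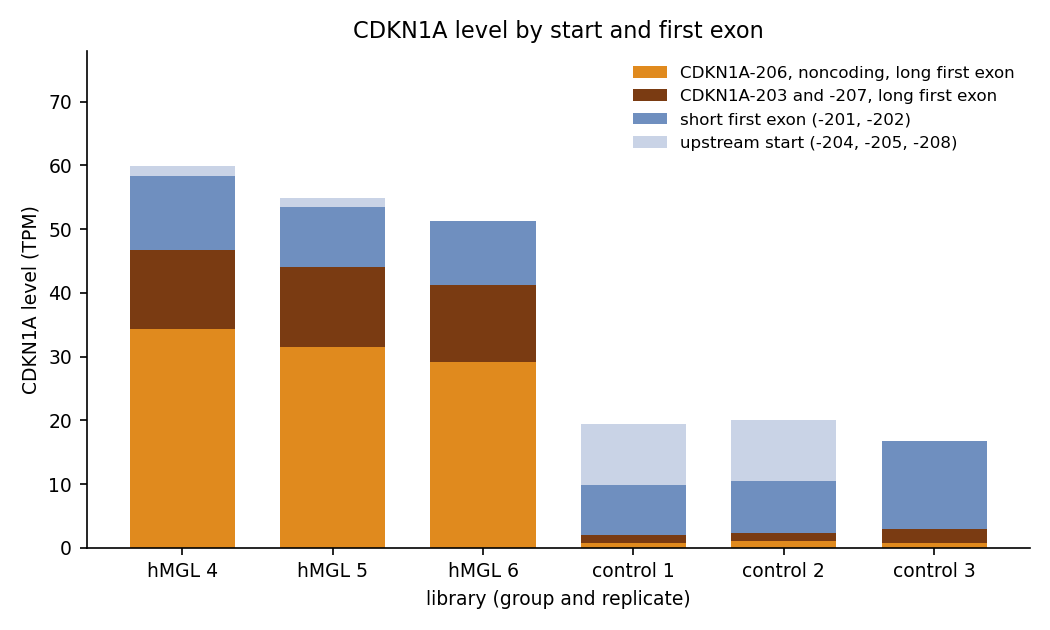
CDKN1A level in TPM (y axis) in each library (x axis, hMGL left of control), stacked by class of start and first exon. Orange and brown, the forms with the long first exon, make up most of the bar in hMGL libraries and little of it in control libraries; the upstream class is near 0 in control replicate 3.

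The test of transcript usage, which sets each transcript against the rest of its gene (edgeR's diffSpliceDGE), called 0 of the members' 26 tested transcripts, against 2.79% of the 73934 transcripts tested (1.8% higher and 0.995% lower). At an unadjusted p under 0.05 it gave 3: CDKN1A-206, CDKN1A-208 and CDKN2A-203. For CDKN1A-206 the adjusted p was 0.0777. The limma counterpart on log2(TPM + 1) called 15 of them, 8 higher and 7 lower, CDKN1A-206 included with an adjusted p of 7.49e-05, and it called 25.9% of all 73934 transcripts (13.0% higher and 13.0% lower). The shares of CDKN1A-206 do not overlap between the groups, and its call of usage depends on the method. CDKN1A-204 did not pass the filter on low counts, so its counts are not in the rest of the gene in the diffSpliceDGE test. The spread of CDKN1A-208 and CDKN1A-201 among control libraries does lie there, and its part in the missed call was not tested.

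The promoter window upstream of the RefSeq start of CDKN1A, 250 bases at chr6:36678464-36678713 on the plus strand of GRCh38.p14, takes in the starts of CDKN1A-201 and CDKN1A-203 near its 3′ end. It is shown because it borders the first exon whose long forms rose. The capitals mark GGGCGG, the core of a GC box bound by SP1 family factors, searched on both strands.
CDKN1A promoter: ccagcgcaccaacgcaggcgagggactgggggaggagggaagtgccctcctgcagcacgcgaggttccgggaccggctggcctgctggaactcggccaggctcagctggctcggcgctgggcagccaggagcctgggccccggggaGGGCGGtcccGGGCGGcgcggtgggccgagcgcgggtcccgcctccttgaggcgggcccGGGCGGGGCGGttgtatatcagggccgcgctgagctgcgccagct
The motif occurs 4 times in this window, and 42.6% of 35116 RefSeq promoter windows of that length hold it. A match is a string of letters and not a measured site. DINOL, a noncoding RNA gene that starts on the opposite strand just upstream of this start and overlaps the CDKN1A annotation, was at 27.0 to 30.8 estimated counts in hMGL and 3 to 10 in control libraries and rose by 2.18 ± 0.38 on the log2 scale (edgeR adjusted p = 6.21e-05). The strandedness of the libraries is not given in the sources used here, so reads of overlapping genes on opposite strands cannot be told apart.

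CDKN1B (chr12:12715058-12722371, plus strand) encodes p27, the CIP/KIP inhibitor of resting cells that the SKP2 ubiquitin ligase removes. It was at 35.0, 33.3 and 35.0 CPM in hMGL libraries, against 33.8, 31.3 and 34.5 CPM in control libraries. The groups overlapped. The log2 fold change was 0.05 ± 0.04 with a 95% interval of -0.04 to 0.14 (edgeR adjusted p = 0.285), an interval that leaves out a change of 1.5-fold in either direction. It was the only tested member whose direction turned with the scaling, to -0.11 with an offset for effective length, and it passed at 0.13 when libraries were scaled by their totals alone (adjusted p = 0.00914). It also passed without hMGL replicate 5, at 0.11 (adjusted p = 0.0398). Its main form CDKN1B-201 had 10.1 ± 1.02 TPM in hMGL and 8.58 ± 0.563 TPM in control cells, and the shorter CDKN1B-202 had 1.73 ± 0.609 TPM in hMGL and 3.26 ± 0.168 TPM in control cells. Neither passed at transcript level (edgeR adjusted p = 0.0808 for CDKN1B-201 and 0.0506 for CDKN1B-202), but CDKN1B-202, with a log2 fold change of -0.97 ± 0.29, passed under 6 of 11 alternatives, with adjusted p-values of 0.00368 by DESeq2 to 0.137 without control replicate 3. AC008115.3, annotated within an intron of CDKN1B on the same strand, fell by 0.77 ± 0.10 on the log2 scale (edgeR adjusted p = 1.25e-06).

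CDKN1C (chr11:2883213-2885773, minus strand) encodes p57, the CIP/KIP member known as an imprinted gene. It was at 5.70, 5.42 and 4.65 CPM in hMGL libraries, against 13.5, 13.1 and 14.3 CPM in control libraries. Every hMGL library lay below every control library. The fall was 1.37 ± 0.08 on the log2 scale, to a level 2.59-fold lower (edgeR adjusted p = 7.34e-11). The short coding form CDKN1C-201 (coding length 393 bases) held 65.3% of its TPM in hMGL and 70.0% in control cells. CDKN1C-201 and CDKN1C-204 both fell (log2 fold changes -1.52 ± 0.13 and -1.40 ± 0.28, edgeR adjusted p = 0.000455 and 0.0132), whereas CDKN1C-202 had -0.75 ± 0.31 and did not pass (adjusted p = 0.123). The CIP/KIP group as a list thus had 1 gene that rose, 1 that fell and 1 that did not pass.

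Among the INK4 genes, CDKN2A (chr9:21967753-21995301, minus strand) gives rise to p16INK4a from exon 1-alpha and, from a separate upstream exon 1-beta read in another frame, to p14ARF, which binds MDM2. It was at 7.35, 7.67 and 8.31 CPM in hMGL libraries, against 2.60, 2.17 and 2.39 CPM in control libraries. The groups lay far apart although the gene was scarce, with 385.0 to 406.0 estimated counts per hMGL library and 110.0 to 143.0 per control library. The log2 fold change was 1.70 ± 0.11 (edgeR adjusted p = 8.94e-11).

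Its transcripts differed by start. The 5 transcripts that start at or beyond exon 1-beta had 0 estimated counts in all 6 libraries, which allows up to 3 counts in each (at most 0.0614 CPM, counting error only). The 4 that start in exon 1-alpha summed to 2.40, 2.57 and 1.75 TPM in hMGL libraries, against 0.929, 0.548 and 0.648 TPM in control libraries. The 5 that start in or near exon 2 summed to 4.13, 3.23 and 4.78 TPM in hMGL libraries, against 1.11, 1.40 and 1.20 TPM in control libraries. Both of these classes were higher in every hMGL library. CDKN2A-201, the coding form from exon 1-alpha, rose by 2.02 ± 0.30 and CDKN2A-212, a shorter coding form from exon 2, by 2.06 ± 0.23 on the log2 scale (edgeR adjusted p = 0.00479 and 0.00137). CDKN2A-203, a form annotated for nonsense-mediated decay, had -0.44 ± 0.35 and did not pass (edgeR adjusted p = 0.411), and the noncoding CDKN2A-211 had 0.306 ± 0.150 TPM in hMGL and 0.289 ± 0.139 TPM in control cells and too few counts to be tested. CDKN2B-AS1, the antisense RNA gene that overlaps the locus, had -0.48 ± 0.23 and did not pass (edgeR adjusted p = 0.0699).

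CDKN2B, the p15 gene beside CDKN2A, was at 0, 1 and 2.03 estimated counts in hMGL libraries and at 0 in all 3 control libraries, all of it assigned to CDKN2B-202. Each value is below the 3 counts that a count of 0 allows, so no fold is given and no difference was detectable at this depth.

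CDKN2C (chr1:50960745-50974633, plus strand) encodes p18, an INK4 protein. It was at 27.4, 27.2 and 26.0 CPM in hMGL libraries, against 61.5, 57.6 and 59.6 CPM in control libraries. Each group was tight and they did not overlap. The fall was 1.15 ± 0.04 on the log2 scale, to a level 2.22-fold lower (edgeR adjusted p = 2.59e-14). All 3 of its transcripts have the same coding length. CDKN2C-203 fell by 1.36 ± 0.06 and the shorter CDKN2C-202 by 0.74 ± 0.06 on the log2 scale (edgeR adjusted p = 3.59e-05 and 0.000382), and CDKN2C-202 held 69.3% of the gene's TPM in hMGL and 59.6% in control cells.

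CDKN2D (chr19:10566462-10569059, minus strand) encodes p19, the INK4 member that in textbooks is periodic in the cell cycle. It was at 22.8, 21.0 and 19.8 CPM in hMGL libraries, against 13.95, 15.05 and 13.93 CPM in control libraries. The hMGL libraries were spread more but stayed above all control libraries. The log2 fold change was 0.57 ± 0.06, a 1.48-fold rise (edgeR adjusted p = 2.00e-07), and a test against a change of 1.5-fold did not pass (adjusted p = 0.659). CDKN2D-201 carried 89.0% of its TPM in hMGL and 88.1% in control cells and rose by 0.61 ± 0.07 on the log2 scale (edgeR adjusted p = 0.0014). CDKN2D-202 had 1.09 ± 0.230 TPM in hMGL and 0.745 ± 0.203 TPM in control cells and did not pass (log2 fold change 0.47 ± 0.22, edgeR adjusted p = 0.176). Of the 3 INK4 genes tested, 2 rose and 1 fell.

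The 3 retinoblastoma family genes fell. RB1 (chr13:48303726-48599436, plus strand) encodes pRB, the tumour suppressor that binds the activating E2F factors. It was at 28.4, 27.5 and 26.9 CPM in hMGL libraries, against 92.5, 89.6 and 91.7 CPM in control libraries. The hMGL libraries lay within 2 CPM of each other and far below control. The fall was 1.73 ± 0.04 on the log2 scale (edgeR adjusted p = 5.30e-17), and 4.16% of the genes tested had a lower log2 fold change.

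The fall of RB1 was that of its full-length coding form. RB1-201 (27 exons, coding length 2784 bases) had 7.73, 6.76 and 6.47 TPM in hMGL libraries, against 22.8, 21.6 and 19.98 TPM in control libraries, and held 95.1% of the gene's TPM in hMGL and 94.8% in control cells. It fell by 1.68 ± 0.04 on the log2 scale (edgeR adjusted p = 5.81e-06). LPAR6, a receptor gene inside an RB1 intron on the opposite strand, had a log2 fold change of -0.17 ± 0.09 and did not pass (edgeR adjusted p = 0.119). RCBTB2, also on the opposite strand within the annotated span of RB1, rose by 0.59 ± 0.11 on the log2 scale (edgeR adjusted p = 0.000168).

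RBL1 (chr20:36996349-37095995, minus strand) encodes p107, itself a textbook E2F target. It was at 41.9, 42.9 and 43.1 CPM in hMGL libraries, against 51.5, 51.1 and 52.8 CPM in control libraries. The groups were apart by a small margin. The fall was 0.28 ± 0.04 on the log2 scale, 1.22-fold (edgeR adjusted p = 1.67e-06). With limma on log2(TPM + 1) the adjusted p was 0.0574, and a test against a 1.5-fold change gave an adjusted p of 1. RBL1-203, RBL1-202 and RBL1-201 held 43.2%, 32.1% and 23.3% of its TPM in hMGL and 44.3%, 30.1% and 24.4% in control cells. RBL1-203, of 763 bases, has no base of its own within the gene, so its share rests on how kallisto shared reads. All 3 tested transcripts of RBL1 had negative log2 fold changes, -0.20 to -0.36, and 0 of 3 passed at transcript level by edgeR (with DESeq2 the transcripts RBL1-202 and RBL1-203 passed, adjusted p = 0.00901 and 0.0158, and with a filter of 1 CPM in every library 0.0292 and 0.0391; of the 11 alternatives RBL1-201 passed only without hMGL replicate 6, adjusted p = 0.0107). An antisense gene without a symbol that overlaps the start of RBL1 fell by 1.13 ± 0.34 on the log2 scale (edgeR adjusted p = 0.00744).

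The RefSeq window before the start of RBL1, chr20:37095998-37096247 on the minus strand of GRCh38.p14, is shown because it holds a pair of E2F core motifs next to each other. They are the only matches among the members' windows for the 4 forms searched on both strands, TTTCGCGC, TTTGGCGC, TTTCCCGC and TTTGCCGC. The capitals mark both.
RBL1 promoter: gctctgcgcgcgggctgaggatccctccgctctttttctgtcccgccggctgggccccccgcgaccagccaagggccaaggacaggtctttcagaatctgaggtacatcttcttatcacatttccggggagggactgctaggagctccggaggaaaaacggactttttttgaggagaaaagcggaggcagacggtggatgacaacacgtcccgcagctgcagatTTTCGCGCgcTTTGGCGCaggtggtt
TTTCGCGC occurs in 0.439% and TTTGGCGC in 0.55% of the 35116 RefSeq windows, TTTCCCGC in 1.39% and TTTGCCGC in 0.49%. TTTGAA, the core of the cell cycle homology region bound by the DREAM complex, was found in no member's window and in 13.3% of all windows. Windows were matched by symbol for every member except CDKN1C. The window listed for RB1 belongs to a start inside the gene and is not shown.

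RBL2 (chr16:53433977-53491649, plus strand) encodes p130, the family member of resting cells and the usual pocket protein of the DREAM repressor complex. It was at 27.8, 29.7 and 28.3 CPM in hMGL libraries, against 44.5, 40.6 and 38.9 CPM in control libraries. The groups did not overlap in CPM, but they did in TPM, at 6.005 to 7.41 in hMGL and 7.18 to 9.34 in control libraries. The fall was 0.53 ± 0.05 on the log2 scale, 1.45-fold (edgeR adjusted p = 5.71e-08). With limma on log2(TPM + 1) it was 0.26 lower with an adjusted p of 0.0528, and a test against a 1.5-fold change gave an adjusted p of 1. RBL2-201, the longest coding form, fell by 0.68 ± 0.08 on the log2 scale (edgeR adjusted p = 0.00157), and its share of the gene's TPM was 49.0% in hMGL and 61.0% in control cells. RBL2-203, a coding form with coding length 1917 bases, had 1.93 ± 0.354 TPM in hMGL and 1.43 ± 0.367 TPM in control cells and did not pass (log2 fold change 0.35 ± 0.21, edgeR adjusted p = 0.274). RBL2-202, a noncoding processed transcript, had 1.22 ± 0.154 TPM in hMGL and 1.502 ± 0.206 TPM in control cells and did not pass either (log2 fold change -0.36 ± 0.13, edgeR adjusted p = 0.0956; 0.0372 with DESeq2 and 0.0423 with the filter of 1 CPM). AKTIP, on the opposite strand and overlapping the end of RBL2, rose by 0.67 ± 0.06 on the log2 scale (edgeR adjusted p = 9.16e-09).

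Over the members' 26 tested transcripts, 5 rose and 6 fell by edgeR, against 30.3% of the 95285 transcripts tested (16.4% higher and 13.9% lower). Of the 61 listed, 12 had 0 estimated counts in every library.

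Genes whose log2 CPM followed the same pattern over the 6 libraries were TIMM21, ABCA10 and TBC1D2 for CDKN1A (Pearson r = 0.9999, 0.9998 and 0.9996) and SLC6A6, DYNC2I2 and VAV2 for RB1 (r rounding to 1.00), out of the 9940 tested genes that averaged 10 CPM or more. These r describe 6 points in 2 groups and carry no p.

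The partners and targets of these proteins moved as follows, again against a background in which 69.4% of genes passed. Among 12 tested cyclins and kinases of G1 and S phase, 4 rose and 7 fell. Cyclin D1 (CCND1), the activator of the kinases that INK4 proteins block, had 190.3 ± 13.7 TPM in hMGL and 75.1 ± 5.61 TPM in control cells and rose 2.30-fold (edgeR adjusted p = 8.47e-17). CDK2, the kinase that p21 and p27 restrain, rose 1.81-fold (edgeR adjusted p = 5.20e-14), while cyclin D3 (CCND3), cyclin E2 (CCNE2) and cyclin A2 (CCNA2) fell by 1.94, 3.47 and 1.47 on the log2 scale. CDK4 had 94.6 TPM in hMGL and 91.7 TPM in control cells and did not pass.

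Downstream of the retinoblastoma proteins, 18 of 20 tested E2F target genes of S phase fell and 1, FEN1, rose, with a median log2 fold change of -1.43 against -0.02 over all genes. PCNA, the sliding clamp of DNA replication, had 54.1 ± 4.84 TPM in hMGL and 208.6 ± 10.0 TPM in control cells and fell by 2.03 ± 0.03 on the log2 scale (edgeR adjusted p = 2.01e-18). The helicase subunits MCM6 and MCM2 fell by 2.48 and 1.54. Of 10 E2F and DP genes, 3 rose and 6 fell: the activator E2F1 and the partner TFDP1 fell by 2.19 and 1.61, and the repressor E2F7 rose by 1.33. Of 7 genes of the DREAM and MuvB complexes, 2 rose (LIN9 by 1.15 and LIN37 by 0.27) and 3 fell, MYBL2 by 1.79. Of 9 chromatin partners of pRB, 4 rose and 5 fell, among them the deacetylase HDAC1, which fell by 1.24.

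Of 25 transcription regulators of CDK inhibitor genes, 15 rose and 7 fell. The stress factor DDIT3 rose by 3.99, ETS1, an activator of CDKN2A in fibroblasts, by 1.98, and KLF4, an activator of CDKN1A, by 1.67, whereas SMAD3, through which TGF-beta acts on CDKN2B, fell by 1.57. Of 10 tested genes of the Polycomb complexes that silence the INK4 locus, with CDKN2B-AS1 counted among them, 3 rose (CBX8, BMI1 and RING1) and 6 fell. Among the fallers, the methyltransferase EZH2 had 17.4 ± 0.822 TPM in hMGL and 27.1 ± 2.03 TPM in control cells, a fall of 0.72. Of 14 genes of the ubiquitin machinery for CDK inhibitors, 5 rose and 5 fell: CDC34 rose by 0.40, and RNF123 and UBAC1, the pair of subunits of a p27 ligase, fell by 0.75 and 0.51. Of 10 genes listed for G1 arrest and quiescence, 6 rose and 3 fell, with BTG1 higher by 2.33 and CITED2 by 3.64. The risers of that list count cyclin D1 (CCND1) again, and its fallers were BTG3, KLF2 and GAS1. All values in this account of partner genes for which no scale is named are log2 fold changes from the same edgeR test.

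**Figure D5:**
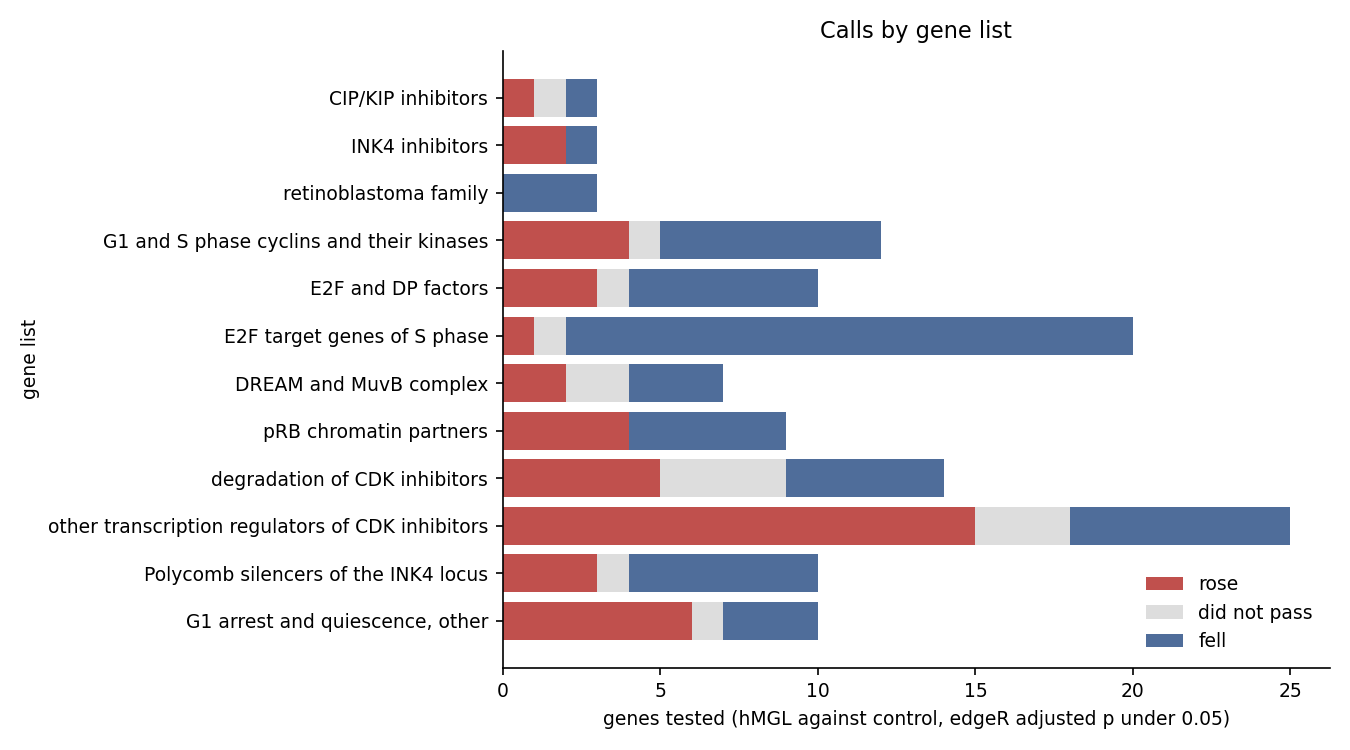
Number of tested genes (x axis) in each gene list (y axis) that rose in hMGL (red), did not pass (grey) or fell (blue) by edgeR. The 20 E2F targets of S phase are nearly all blue, and 15 of the 25 transcription regulators are red.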

How the data were processed

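RNA of 3 hMGL-treated and 3 untreated A375 cultures was sequenced. Per the file headers, the deposited tables hold estimated counts (expected counts, neither whole nor scaled between libraries), TPM, length and effective length per transcript. Per the submitters' processing notes, kallisto (0.45.0) and DESeq2 (1.30.0) were used, with no roles stated. The genome build, the transcript index, strandedness and RNA selection are not given in the sources used here.

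Transcripts were matched by Ensembl identifier to GENCODE 29 (GRCh38): 203436 of 244939 matched, and the other 41503, with 4.86% to 5.13% of a library's counts, were left out of gene sums. Estimated counts were summed per gene and rounded, genes with low counts were removed (filterByExpr, minimum count 10, minimum total 15), libraries were scaled by TMM, and groups were compared with edgeR 4.0.16 (robust quasi-likelihood test, two-sided, threshold 0.05 after Benjamini-Hochberg adjustment over all features tested) in R 4.3.3. A filter of this kind keeps a gene that is high in only 1 group. Transcripts were tested likewise, and their use with diffSpliceDGE. CPM are TMM-scaled. TPM levels and class sums carry no test. Beyond counting error, estimated counts hold an error from dividing reads among transcripts that these files do not let one measure. This bears on CDKN1B-202, CDKN1C-201, CDKN2A-212 and CDKN2C-203 as on CDKN1A-203, since none of them has a base of its own within its gene. P values set the difference between the groups against the spread between these cultures. DESeq2 1.42.0 and limma 3.58.1 gave alternatives, as did other scalings, filters, offsets and leaving out each library. On simulated counts the fits were tested for the recovery of known changes. Promoter sequences are those of the RefSeq table (GRCh38.p14).

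All 10 members are named. Transcripts are named where they hold at least 5% of a gene's TPM (mean over the 6 libraries), and list genes as up to 3 that rose and 3 that fell with the lowest adjusted p. Antisense and nested genes that overlap a member are also named where they have a symbol and enough counts to be tested. CDK4, CDKN1A-202 and CDKN1A-207 were named outside this rule, after their values were seen. The markers SOX10, MITF, MLANA, TYR, PTPRC, CD3E and KRT1 were also named outside it. The members and lists were chosen with earlier results of these data known. Some results on single genes and the gene lists around them are not reported here.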

Additional observations from a re-analysis of the deposited data

How the results depend on the processing

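CDKN1A, CDKN1C, CDKN2A, CDKN2C and RB1 kept their direction and passed under all 18 alternatives, with log2 fold changes of 0.41 to 1.55 for CDKN1A, -1.46 to -1.05 for CDKN1C, 1.305 to 1.95 for CDKN2A, -1.18 to -0.84 for CDKN2C and -1.80 to -1.50 for RB1. Members called lower were 5 (34.5% of all genes tested). They were 3 in the test against a 1.5-fold change (16.7% of all), without RBL1 and RBL2. They were also 3, again without RBL1 and RBL2, with limma on log2(TPM + 0.1) or on log2(TPM + 1) (24.8% and 24.9% of all). CDKN1B turned to -0.0039 and -0.0034 with limma (pseudocounts 0.1 and 1), to -0.0203 with a GC and length offset and to -0.11 with one for effective length. Library totals alone moved the median of all genes to 0.06.

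At transcript level, 5 rose and 6 fell; DESeq2 gave 12 lower (19.2% of all transcripts tested), and a filter of 1 CPM in every library gave 2 higher and 10 lower of 17 (29.8% and 30.4% of all). Usage calls were 0 in each direction. Under that filter they were 2 higher and 2 lower of 16 (9.88% and 7.60% of all). With limma's diffSplice they were 8 higher and 7 lower of 26 (13.0% of all in each direction). Leaving out a library gave 0 to 1 lower, with 1 without control replicate 1 (0.843% of all lower in that setting). CDKN1A-201 turned to 0.0204 and 0.0152 with limma (pseudocounts 0.1 and 1) and ranged from -0.32 to 0.27 with a library left out, positive without control replicate 3. CDKN1A-208 ranged from -12.4 to 2.56 and its usage from -13.1 to 1.86, the positive values without control replicate 2. The cause of these turns was not tested. No paired analysis was possible because the groups share no replicate number.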
